A study of Homo sapiens with 6 samples.

Results

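The zinc finger gene cluster at 19p12 was followed in HCT116, a human colorectal carcinoma cell line, with and without LSD1. Its members were the 34 genes of the deposited table whose Ensembl identifiers carry the listed symbols of the 19p12 cluster, all of them KRAB zinc finger genes, from ZNF506 to ZNF254, out of 60240 genes listed. They spanned chr19:19792711-24129968 (GRCh38), a stretch of 4.337 Mb. By positions on GRCh37, 161 other listed genes lay within the span of the members. The comparison set was the 648 other genes with symbols starting ZNF, of which 264 lie on chromosome 19. The members were chosen by family and position, and the list was proposed with the log2 differences between LSD1 KO and WT and between replicate numbers in view, so every value of the members in these comparisons is a description.

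The WT group was 3 libraries of wild-type HCT116 cells, and the LSD1 KO group was 3 libraries of HCT116 cells in which LSD1, the histone H3 lysine 4 demethylase encoded by KDM1A, was knocked out with CRISPR/Cas9. Both groups were grown in the same medium, and no treatment after the making of the knockout is stated. The measurement was polyA RNA sequencing, summed to estimated read counts per gene. To make the knockout, cells were transfected, selected with puromycin and expanded as individual clones. No such steps are stated for the WT cells, so they coincide with the genotype. Whether the LSD1 KO libraries come from 1 clone is not given in the sources used here. The replicate numbers 1, 2 and 3 occur in both groups. The study's methods state biological replicates for its experiments in general, but neither they nor the labels say whether the libraries of a group came from separate cultures, so part of the spread between them may be technical.

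KRAB zinc finger proteins form the largest family of transcription factors in the human genome. Each carries a KRAB domain, which binds the corepressor TRIM28 (KAP1), and an array of C2H2 zinc fingers, which reads DNA, often inside transposable elements. TRIM28 in turn brings the histone H3 lysine 9 methyltransferase SETDB1, HP1 proteins and the NuRD complex, and the bound element is silenced. The 19p12 cluster arose by repeated tandem duplication in primates, so its genes are close paralogs. ZNF91 is known as a repressor of SVA elements, ZNF93 as a repressor of LINE-1 elements, and ZNF675 as TIZ, an inhibitor of TRAF6 signalling. For most of the other members no target or role is stated here.

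The promoters that could be matched to members were alike, whether or not the gene was expressed. RefSeq promoter windows of 300 bases on GRCh38.p14, from 250 bases before to 50 bases after the transcription start, were matched for 26 of the 34 members, and the other 8 (ZNF99, ZNF506, ZNF98, ZNF253, ZNF728, ZNF738, ZNF676 and ZNF729) were not matched. Of these 8, all but ZNF506 and ZNF738 had at most 19 counts over all 6 libraries. Among the members with 0 counts in every library, only ZNF730 was matched, so the silent members are less fully covered. The 120 bases before the start are printed for 8 members on their coding strand, 5′ to 3′, with every CCAAT in capitals: ZNF714, ZNF431 and ZNF430 because they were among the 4 members of highest level, ZNF66 and ZNF91 because they varied most with replicate number or have a known repeat target, ZNF675 because its groups did not overlap, and ZNF43 and ZNF257 because they were at or near 0 counts. The windows are ZNF714 at chr19:21082083-21082202 (+ strand), ZNF431 at chr19:21141920-21142039 (+ strand), ZNF430 at chr19:21020537-21020656 (+ strand), ZNF66 at chr19:20776184-20776303 (+ strand), ZNF91 at chr19:23395472-23395591 (- strand), ZNF675 at chr19:23687213-23687332 (- strand), ZNF43 at chr19:21836183-21836302 (- strand) and ZNF257 at chr19:22052364-22052483 (+ strand).
ZNF714: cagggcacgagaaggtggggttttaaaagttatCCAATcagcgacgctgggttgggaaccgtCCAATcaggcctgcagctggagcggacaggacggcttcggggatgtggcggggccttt
ZNF431: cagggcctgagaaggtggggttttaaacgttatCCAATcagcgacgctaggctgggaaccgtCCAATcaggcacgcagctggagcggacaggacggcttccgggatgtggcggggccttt
ZNF430: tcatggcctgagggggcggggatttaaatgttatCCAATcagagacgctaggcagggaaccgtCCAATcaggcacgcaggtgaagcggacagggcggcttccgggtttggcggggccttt
ZNF66: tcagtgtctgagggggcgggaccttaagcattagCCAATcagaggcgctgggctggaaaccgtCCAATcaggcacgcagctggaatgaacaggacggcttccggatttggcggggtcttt
ZNF91: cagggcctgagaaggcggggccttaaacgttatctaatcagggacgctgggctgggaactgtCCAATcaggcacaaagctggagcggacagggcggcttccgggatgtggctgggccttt
ZNF675: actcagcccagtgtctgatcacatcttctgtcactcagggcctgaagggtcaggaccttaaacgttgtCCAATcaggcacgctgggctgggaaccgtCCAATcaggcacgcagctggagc
ZNF43: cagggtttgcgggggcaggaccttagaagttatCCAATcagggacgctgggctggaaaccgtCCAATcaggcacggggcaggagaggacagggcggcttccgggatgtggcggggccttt
ZNF257: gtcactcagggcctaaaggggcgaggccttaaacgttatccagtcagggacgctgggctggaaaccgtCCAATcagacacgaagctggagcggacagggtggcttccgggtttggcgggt

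In ZNF714, ZNF431 and ZNF43 the boxes began 87 and 58 bases before the start, and in ZNF430 and ZNF66 they began 86 and 57 bases before it. ZNF91 held a single box, 58 bases before the start, and ZNF257 a single box 52 bases before it. The boxes of ZNF675 began 52 and 23 bases before the start. The sequences of ZNF714, at 31.2 CPM, and ZNF43, at 3 counts over all 6 libraries, were identical at 82.7% of the 300 bases of the window. For ZNF43, ZNF730 and ZNF254 the matched start lies inside the annotated gene and not at its 5′ end. The ZNF43 gene spans chr19:21804946-21852065 on the minus strand, and its full window is chr19:21836133-21836432. Starts further upstream in these genes were not examined.

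CCAAT, searched on both strands, occurred in 26 of the 26 matched members, against 35.7% of all 27305 promoters and 43.8% of the 482 promoters of other ZNF genes. At least 2 boxes occurred in 19 members (73.1%), against 11.3% of all promoters and 14.3% of those of other ZNF genes. The longer word CCAATCAG, which contains CCAAT, also occurred in 26 members, against 4.16% of all promoters and 12.2% of other ZNF promoters. In 25 members at least 1 box began between 100 and 30 bases before the start, with 42 boxes in that window in all. The words were read first from the members' own sequences, so these shares describe the family and give no chance level, and a match is not a shown binding site. CCAAT was present in 16 of the 16 matched members that passed the expression filter and in 10 of the 10 matched members that did not.

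**Figure D1:**
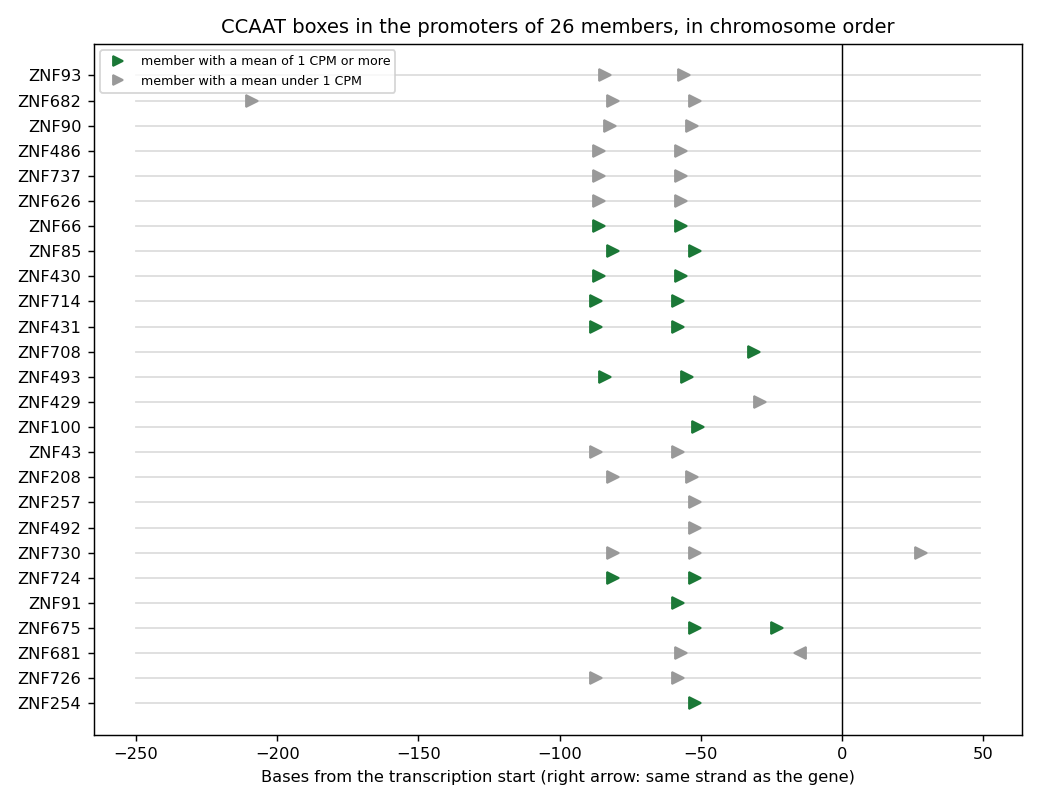
Positions of CCAAT in the promoters of the 26 matched members, in chromosome order from top to bottom. The x axis is the distance in bases from the RefSeq transcription start, arrows to the right mark the strand of the gene, and green marks members with a mean of 1 CPM or more. Most boxes line up at about the same distances in expressed and in nearly silent members, with 42 boxes in 25 members between 100 and 30 bases before the start. The single boxes of ZNF708 and ZNF429 began 31 and 29 bases before the start, nearer to it than most.

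Over the 325 pairs of members the identity of the windows had a median of 77.0% of 300 bases and ranged from 58.0% to 90.7%. ZNF714 and ZNF431, neighbours with the highest CPM of the cluster, were the most alike pair. The median identity was 78.0% between 2 members that passed the filter, 77.2% between one that passed and one that did not, and 76.3% between 2 members that did not. The GC content of the windows had a median of 56.0% (50.7% to 59.3%), close to the 58.3% of all promoters, and the median number of CpGs was 10, against 14.

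The libraries held 25379279 to 29186963 estimated counts, so a count of 0 allows up to 3 counts, or 0.103 to 0.118 counts per 1000000 reads (CPM), in a library. These limits are on the raw library totals and cover counting error only, whereas the CPM of genes given here are scaled by edgeR's TMM factors. KDM1A, the targeted gene, was at 223.1 ± 8.78 CPM in WT and 28.4 ± 1.30 CPM in LSD1 KO (mean ± SD, n = 3), a log2 fold change of -2.97 (SE 0.15, edgeR quasi-likelihood test, q = 0.000451). The epithelial markers EPCAM, CDH1, KRT8, KRT18 and KRT19 had means of 32.3 to 1188 CPM. CD3E was at 0, PTPRC, CDH5, COL1A2 and DCN had at most 5 counts over all libraries, and LYZ, VWF and COL1A1 had means of 1.16, 0.73 and 27.6 CPM.

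Expression of the members came in runs along the chromosome. Taking a mean of 1 CPM over the 6 libraries as the boundary, which was set after the values were seen and lies in the gap between ZNF492 at 0.85 CPM and ZNF85 at 1.99 CPM, 14 of the 34 members were above it. The longest run above it held 8 adjacent members, ZNF66, ZNF85, ZNF430, ZNF714, ZNF431, ZNF708, ZNF738 and ZNF493 (chr19:20776304-21427577), with means of 1.99 to 31.2 CPM. A run of 7 members under 1 CPM, from ZNF253 to ZNF626 (chr19:19865830-20661571), lay on one side of it, beyond which ZNF506 had a mean of 2.0 CPM. On the other side lay ZNF429 at 0.36 CPM, ZNF100 at 15.7 CPM and then 10 adjacent members under 1 CPM, from ZNF43 to ZNF730 (chr19:21804946-23147221). ZNF724, ZNF91 and ZNF675 formed the next run above 1 CPM, with means of 4.70 to 9.75 CPM. ZNF681 and ZNF726 followed at 0.53 and 0.12 CPM, and ZNF254, the last member, was at 2.46 CPM.

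**Figure D2:**
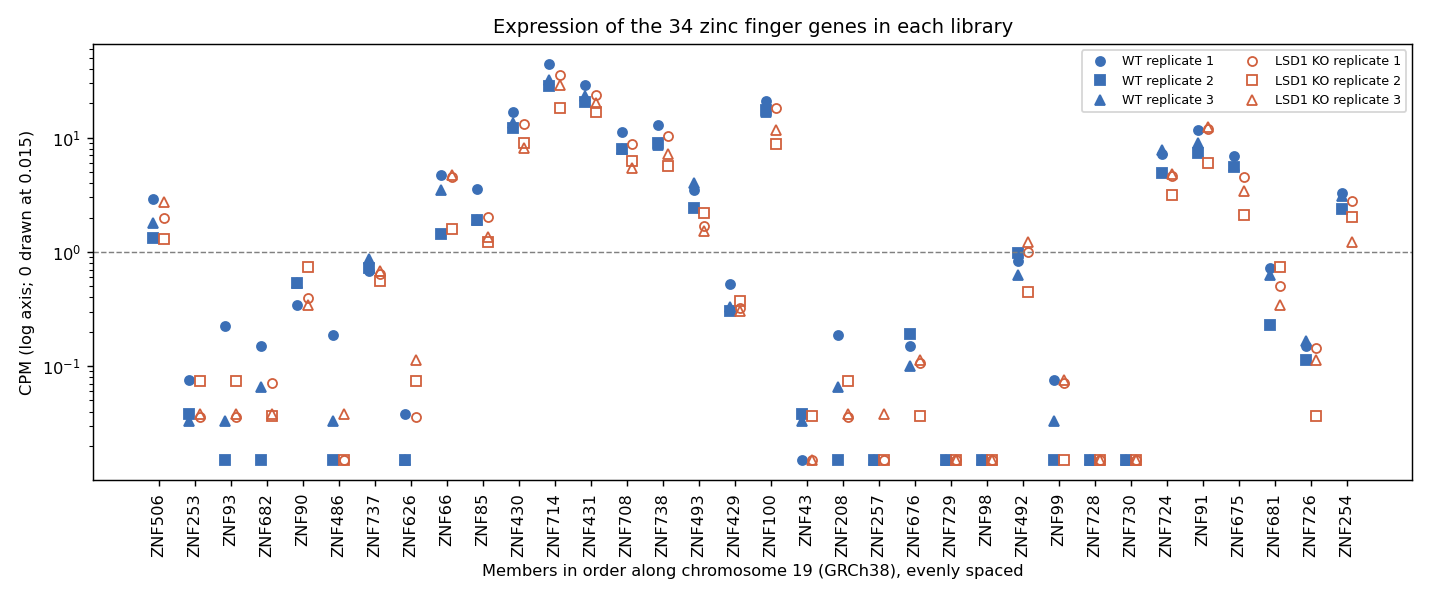
CPM of each of the 34 members in each of the 6 libraries, on a log axis with 0 drawn at 0.015, with the members evenly spaced in chromosome order. Filled blue symbols are WT, open orange symbols are LSD1 KO, symbol shapes give the replicate number, and the dashed line is 1 CPM. The 8 adjacent members from ZNF66 to ZNF493 sit above the line in all 6 libraries, and the members from ZNF43 to ZNF99 sit below it apart from ZNF492, while ZNF728 and ZNF730 are at 0.

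A few members carried most of the cluster's RNA. The 8 members of highest mean level accounted for 84.6% of the summed CPM of the cluster, and ZNF714 alone for 23.3%. ZNF714 was followed by ZNF431 at 22.2, ZNF100 at 15.7, ZNF430 at 12.1, ZNF91 at 9.75, ZNF738 at 8.98, ZNF708 at 7.94 and ZNF724 at 5.42 CPM. Per kilobase of the annotated canonical transcript, a scale on which genes can be compared and which covered 32 members (not ZNF714 and ZNF43), ZNF430 was highest at 3.11 CPM per kb. It was followed by ZNF100 at 2.75, ZNF675 at 2.03, ZNF708 at 1.98, ZNF724 at 1.94, ZNF91 at 1.81, ZNF431 at 1.60 and ZNF738 at 1.45 CPM per kb. ZNF431, whose transcript is 13894 bases long, had the highest CPM of these 32 members and the seventh highest CPM per kb.

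The members of lowest level were close to the detection limit. ZNF729, ZNF98, ZNF728 and ZNF730 had 0 counts in all 6 libraries, and ZNF257 had 1, ZNF43 3, ZNF486, ZNF626 and ZNF99 7 and ZNF253 8 counts in all. ZNF682 had 10, ZNF93 and ZNF208 11, ZNF676 19, ZNF726 20 and ZNF429 59 counts. ZNF93, the LINE-1 repressor, had 6, 0 and 1 counts in the WT libraries and 1, 2 and 1 in the LSD1 KO libraries, which is too few to compare the groups. In 9 of the 34 members no library held more than 3 counts.

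edgeR's filter on low counts, which was applied to all genes, kept 18 of the 34 members (52.9%), 442 of the 648 other ZNF genes (68.2%) and 29.3% of all genes listed. Of the members kept, ZNF90 had the lowest mean, 0.48 CPM, and of those not kept ZNF429 had the highest, 0.36 CPM. The 16 members that were not kept are outside every fit below.

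The first comparison asks what the cluster did on loss of LSD1. No member passed the test, and most of the expressed members had lower values in LSD1 KO than in WT. In RNA from whole cultures, fewer cells that express a gene and less of its RNA per cell cannot be told apart. ZNF714 was at 44.4, 28.5 and 31.8 CPM in WT replicates 1, 2 and 3 and at 35.4, 18.4 and 28.8 CPM in LSD1 KO replicates 1, 2 and 3, so the groups overlapped while each LSD1 KO library was below the WT library of its number. Its log2 fold change was -0.34 (SE 0.27, q = 0.9995). ZNF431 was at 28.9, 20.4 and 23.4 CPM in WT and at 23.5, 16.7 and 20.3 CPM in LSD1 KO (log2 fold change -0.26, SE 0.20). Here too the groups overlapped.

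ZNF430 was at 16.7, 12.1 and 13.4 CPM in WT and at 13.2, 8.92 and 8.18 CPM in LSD1 KO (log2 fold change -0.48, SE 0.25). ZNF100 was at 20.8, 17.6 and 16.9 CPM in WT and at 18.2, 8.81 and 11.7 CPM in LSD1 KO (-0.51, SE 0.27). In both genes only LSD1 KO replicate 1 reached into the WT range. ZNF738 was at 12.96, 8.93 and 8.71 CPM in WT and at 10.4, 5.64 and 7.19 CPM in LSD1 KO (-0.39, SE 0.29). ZNF708 was at 11.1, 7.91 and 8.02 CPM in WT and at 8.87, 6.26 and 5.45 CPM in LSD1 KO (-0.39, SE 0.27). The pattern of these 4 members was the same, with overlapping groups and each LSD1 KO library below the WT library of the same number.

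In 3 members all LSD1 KO libraries lay below all WT libraries. ZNF493 was at 3.51, 2.42 and 4.04 CPM in WT and at 1.68, 2.17 and 1.51 CPM in LSD1 KO, a log2 fold change of -0.89 (SE 0.33, unadjusted p = 0.0251 from edgeR, q = 0.9995). ZNF675 was at 6.95, 5.53 and 5.67 CPM in WT and at 4.51, 2.10 and 3.45 CPM in LSD1 KO, a log2 fold change of -0.85 (SE 0.33, unadjusted p = 0.0295 from edgeR). ZNF724 was at 7.25, 4.92 and 7.82 CPM in WT and at 4.61, 3.17 and 4.77 CPM in LSD1 KO, a log2 fold change of -0.67 (SE 0.29, unadjusted p = 0.0486 from edgeR). These 3 were 16.7% of the 18 members tested, and 6.56% of other ZNF genes and 3.51% of all genes tested had the same order of libraries. The opposite order occurred in 0 members, 2.49% of other ZNF genes and 4.23% of all genes. ZNF85 was at 3.55, 1.89 and 1.89 CPM in WT and at 2.04, 1.22 and 1.36 CPM in LSD1 KO (-0.66, SE 0.39), and its groups overlapped through LSD1 KO replicate 1. Without WT replicate 1 its log2 fold change was -0.30, and those of ZNF714, ZNF431, ZNF738 and ZNF708 were then -0.13, -0.12, -0.19 and -0.22. Without LSD1 KO replicate 1 those of ZNF714, ZNF738, ZNF708, ZNF430 and ZNF100 were -0.57, -0.67, -0.62, -0.72 and -0.84. Without LSD1 KO replicate 2 those of ZNF714, ZNF431, ZNF738 and ZNF100 were -0.14, -0.16, -0.23 and -0.32, and without LSD1 KO replicate 3 that of ZNF708 was -0.26.

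The members with the highest fitted log2 fold changes had values of 0.07 to 0.17, each smaller than its standard error. ZNF66 was at 4.72, 1.44 and 3.51 CPM in WT and at 4.54, 1.58 and 4.73 CPM in LSD1 KO (0.17, SE 0.53). ZNF91, the SVA repressor, was at 11.8, 7.34 and 9.01 CPM in WT and at 11.9, 6.01 and 12.5 CPM in LSD1 KO (0.11, SE 0.32). In both genes the replicate 2 libraries were the lowest of the 6, and the groups overlapped. ZNF492 (0.12, SE 0.48) and ZNF90 (0.07, SE 0.51) were under 1 CPM on average, with 139 and 79 counts in all. When 1 library was left out, the log2 fold change ran from -0.20 to 0.54 in ZNF66 and from -0.07 to 0.36 in ZNF91. It then ran from -0.18 to 0.42 in ZNF492 and from -0.36 to 0.27 in ZNF90. ZNF91 and ZNF675, neighbours in the same run, thus had fitted values of opposite sign, and the difference between them was not tested.

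**Figure D3:**
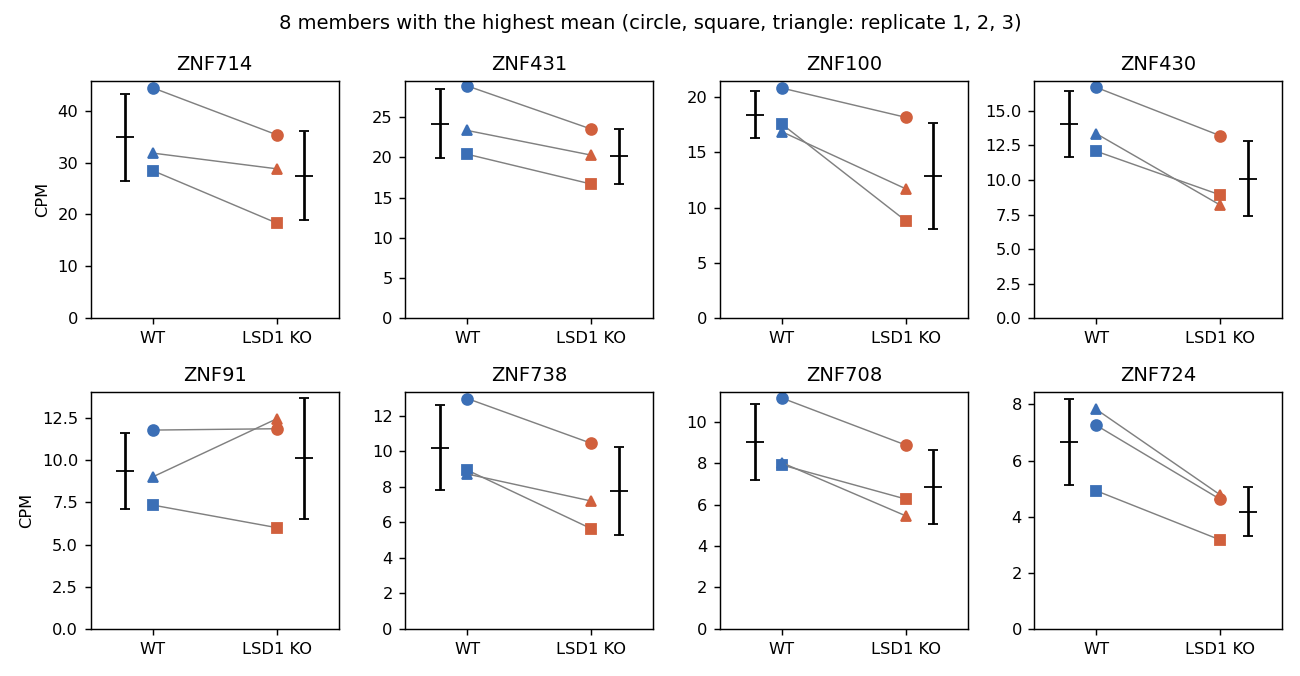
CPM in WT (blue) and LSD1 KO (orange) for the 8 members of highest mean level, each panel with its own axis from 0. Circles, squares and triangles are replicates 1, 2 and 3, grey lines join libraries of the same number, and black bars are mean ± SD (n = 3). In 7 of the 8 panels all lines run downward, and in ZNF91 only that of replicate 2 does.

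Over the 18 members tested the median log2 fold change was -0.37, against -0.04 for the 442 other ZNF genes tested and 0.00 for all 17672 genes tested. Of the 18 members 13 were below 0 (72.2%), against 56.8% of the other ZNF genes and 49.9% of all genes. The median depended on single libraries. Without LSD1 KO replicate 1 it was -0.59, and without WT replicate 1 it was -0.20. By edgeR at q under 0.1, 0 of the 18 members were called, where 0.00566% of all genes were called, that is KDM1A alone. At an unadjusted p under 0.05, 3 members passed (ZNF493, ZNF724 and ZNF675), where 3.12% of all genes did. DESeq2 called 0 members at the same q, where it called 95 genes or 0.37% of those it gave a q. At an unadjusted p under 0.05 from DESeq2, 3 of the 30 members with counts passed. So did 12 other ZNF genes and 664 of all 33857 genes with counts. Nothing is read from these shares for the members, since the contrast was known when they were listed.

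Libraries with the same replicate number moved together across genes, so the fit was repeated with the replicate number as a block. The number of all genes called went from 1 to 282 (1.6%) with the block, and the number of members called was again 0. The median of the members with the block was -0.39, and the lowest q value was 0.137, in ZNF675 (log2 fold change -0.90, SE 0.22). At an unadjusted p under 0.05, 10 members passed with the block, all of them lower in LSD1 KO (ZNF85, ZNF430, ZNF714, ZNF431, ZNF708, ZNF738, ZNF493, ZNF100, ZNF724 and ZNF675). In that fit 13.4% of all genes passed in either direction and 6.19% on the lower side. Over the 18 members alone the correlations of the deviations at the same number were 0.418, 0.027 and -0.244. At different numbers they ran from -0.548 (WT replicate 3 with LSD1 KO replicate 1) to 0.487 (WT replicate 3 with LSD1 KO replicate 2). These correlations are taken around each library's mean over the members, so a shift shared by the whole cluster does not enter them. They show no pairing of the members relative to each other, and cannot decide whether the cluster as a whole paired by number. The summed CPM of the members, given below, fell in the same order of replicate numbers in both groups. Compared pair by pair, 12 of the 18 members were lower in LSD1 KO in 3 of 3 pairs (66.7%), against 23.1% of other ZNF genes and 17.5% of all genes. The median differences of the members were -0.32, -0.36 and -0.50 on the log2 scale in pairs 1, 2 and 3.

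**Figure D4:**
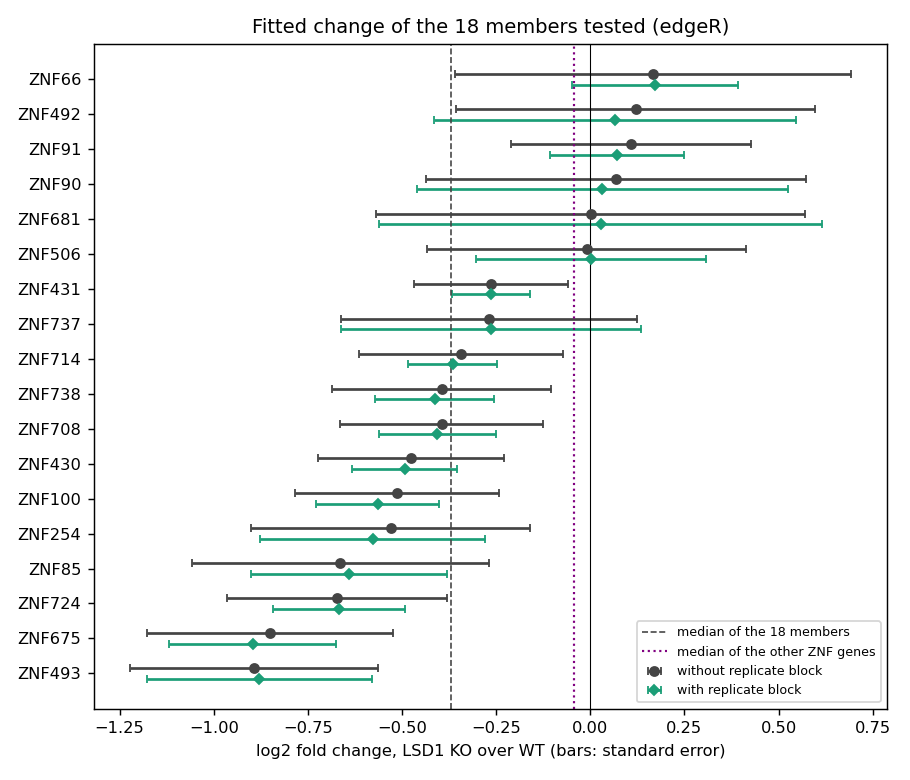
Fitted log2 fold change of LSD1 KO over WT for the 18 members tested, with the standard error as bars, without the replicate block (black circles) and with it (green diamonds). Of the 18 members 13 lie below 0 without the block, the medians of the members (dashed, -0.37) and of the other ZNF genes (dotted, -0.04) are drawn, and the bars of most high-level members are shorter with the block.

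Summed over all 34 members, the cluster was at 183.2, 125.8 and 142.5 CPM in WT replicates 1, 2 and 3 (150.5 ± 29.6, SD, n = 3) and at 147.0, 87.5 and 117.4 CPM in LSD1 KO replicates 1, 2 and 3 (117.3 ± 29.7). The groups overlapped, since LSD1 KO replicate 1 was above WT replicates 2 and 3. The ratio of the means was 0.779, and within pairs it was 0.802, 0.696 and 0.824. The summed CPM of the 648 other ZNF genes had a ratio of 0.994 and pair ratios of 0.980, 0.987 and 1.01. In both sums the replicate 2 library was the lowest of its group.

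**Figure D5:**
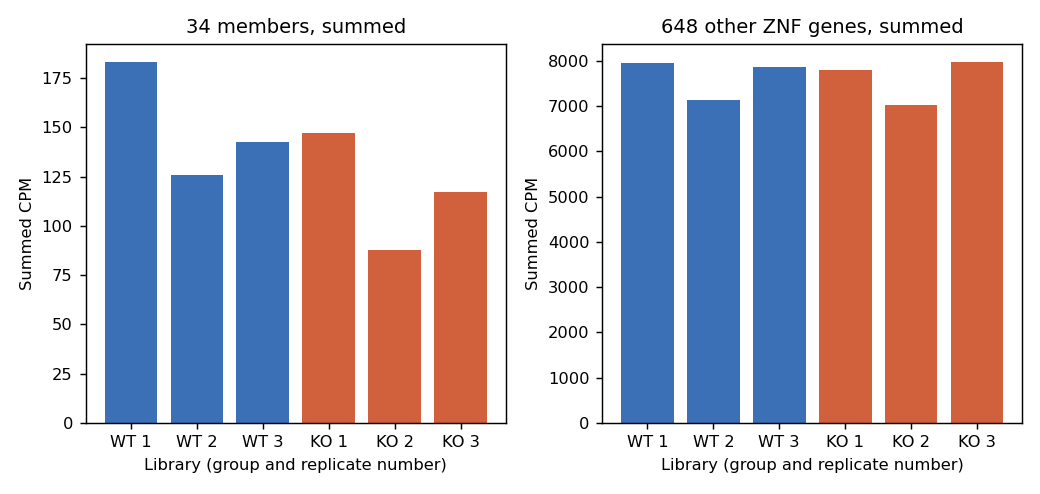
Summed CPM of the 34 members (left) and of the 648 other ZNF genes (right) in each library, with bars from 0, WT in blue and LSD1 KO in orange. The members run from 87.5 to 183.2 CPM, with LSD1 KO below WT at each replicate number, whereas the other ZNF genes run from 7031 to 7972 CPM.

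The second comparison asks how the members varied with replicate number. Of the 18 members tested, 9 differed between replicate numbers at q under 0.1 (50%), where 41.2% of all genes and 32.1% of other ZNF genes did, by edgeR's test of the 2 replicate coefficients in the model with group. They were ZNF66 (q = 0.01), ZNF714 (q = 0.0149), ZNF738 (q = 0.0463), ZNF91 (q = 0.0472), ZNF431, ZNF430, ZNF708, ZNF100 and ZNF724. The share of members is near that of all genes. ZNF66 varied most, with 1.44 and 1.58 CPM in the replicate 2 libraries and 3.51 to 4.73 CPM in the other 4, a log2 difference of -1.62 between replicates 2 and 1. The replicate 2 libraries were the lowest 2 of 6 in ZNF506, ZNF66, ZNF714 and ZNF91 (22.2% of members tested, against 29.9% of other ZNF genes and 20.9% of all genes). Replicate 2 was the lowest of its group in both groups in 7 members (38.9%, against 37.1% of other ZNF genes and 26.0% of all genes).

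The median difference of the members was -0.53 on the log2 scale between replicates 2 and 1 and -0.20 between replicates 2 and 3, beside -0.17 and -0.15 for the other ZNF genes and -0.01 and 0.00 for all genes. The transcripts of the members tested were poor in GC, with a median of 36.7% over the 17 with an annotated transcript against 44.4% for the other ZNF genes and 48.7% for all genes, and long, with a median of 4246 bases against 2855 for all genes. With a correction for transcript GC content and length, which was added after the data were seen, 2 members differed between replicate numbers (ZNF66 and ZNF714) where 35.2% of all genes did. ZNF714 is the member without an annotated transcript, so its values were left uncorrected in this fit. Of the 17 members that were corrected, only ZNF66 was called. The medians of the members, with ZNF714 uncorrected among them, then were -0.32 and 0.00, beside 0.04 and 0.08 for all genes. Without any 1 of WT replicate 1, WT replicate 3, LSD1 KO replicate 1 and LSD1 KO replicate 3, fewer members were called, and fewer of all genes too. Each of these fits leaves 1 library at a replicate number, so nothing is read from it for the members.

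TRIM28, the corepressor that KRAB domains bind, was at 950.2 ± 92.9 CPM in WT and 872.0 ± 84.6 CPM in LSD1 KO, and SETDB1 at 42.3 ± 4.79 and 45.7 ± 4.68 CPM (mean ± SD, n = 3). A list of 30 genes of the KRAB corepressor machinery (TRIM28, SETDB1 and its partners, HP1, HUSH, NuRD and DNA methylation genes) was tested in full, and 0 were called in LSD1 KO against WT by edgeR without or with the block or by DESeq2. At an unadjusted p under 0.05, 0 of them passed in edgeR without the block and in DESeq2, and 2 with the block (6.67%, against 13.4% of all genes). Their median log2 fold change was -0.02. For replicate number 15 of the 30 were called (50%), near the 41.2% of all genes.

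Of the 161 other genes within the span of the cluster, 10 passed the filter, and 8 of them had log2 fold changes below 0. The median of the 10 was -0.29, and 49.9% of all genes tested were below 0. The level of the 10 was low, with a median of 0.96 CPM against 17.6 CPM for all genes tested. Only 2 of them were lower in LSD1 KO in 3 of 3 pairs, where 17.5% of all genes were. IPO5P1, a pseudogene between ZNF724 and ZNF91, was at 2.30, 1.89 and 1.89 CPM in WT and at 1.36, 0.74 and 0.80 CPM in LSD1 KO (-1.07, SE 0.37, q = 0.9995), and was named after its values were seen. It lies on the minus strand, as do ZNF724 and ZNF91, and its groups did not overlap. ENSG00000213976, which overlaps ZNF738 on the same strand, was the other of the 10 whose groups did not overlap (-1.44, SE 0.58). It had 80 counts in all. In these 2 all LSD1 KO libraries lay below all WT libraries, an order found in 3.51% of all genes tested. The opposite order occurred in 0 of the 10 and in 4.23% of all genes. With 10 genes of mostly low level, nothing is read from these counts.

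The members are paralogs, and part of their reads could be assigned to another gene. Of all 31-base words in the transcripts of a tested member, between 11.4% and 60.8% (median 16.4%) also occurred in some other gene. The highest share was that of ZNF724, 45.0% of whose words occurred in the gene ENSG00000283201, which had 6 counts in all. ZNF738 shared 17.0% of its words with the overlapping gene ENSG00000213976, which had 80 counts against 1477 for ZNF738. ZNF66 shared 9.65% of its words with LINC02895, which had 2003 counts against 564 for ZNF66, and ZNF254 overlapped ENSG00000268362 on its own strand, which had 334 counts against 407 for ZNF254. ZNF492 shared 35.4% of its words with ZNF98, which had 0 counts, so their split is uncertain. Whether counting used strand is not given in the sources used here, and ZNF90 overlapped the antisense gene ENSG00000267383, which had 579 counts against 79 for ZNF90, while ZNF85, ZNF431 and ZNF100 overlapped antisense genes of 40 to 80 counts.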

How the data were processed

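PolyA RNA of 3 WT and 3 LSD1 KO HCT116 libraries was sequenced as paired ends on an Illumina HiSeq instrument. The authors trimmed reads with Trimmomatic (0.39) and quantified them with Salmon (1.4.0) on GENCODE release 36 (GRCh38), and deposited 1 table of estimated counts per gene. The deposited values were whole numbers and were used as they stand. Symbols were matched for 58395 of 60240 genes. The main test was edgeR's (4.0.16) quasi-likelihood test in R 4.3.3 with TMM scaling, edgeR's expression filter and Benjamini-Hochberg q values over 17672 genes, called at q under 0.1. DESeq2 (1.42.0) was an alternative, as were a replicate block, other filters and scalings, and leaving out libraries. Scripts were tested on simulated data. Over all genes tested, deviations from group means correlated at 0.531, 0.530 and 0.388 for the same replicate numbers and at -0.489 to 0.031 otherwise. The numbers, which are in the labels, were therefore taken as pairing the libraries. Over the members alone the correlations were not consistently higher at the same number, but these leave out any shift shared by the cluster. Named members were the 8 of highest mean, the 4 of largest change each way, those called, the 4 of smallest p for replicate number, ZNF91 and ZNF93. Members, lists and marker genes were chosen with earlier results of these data known. Promoters came from RefSeq (GRCh38.p14), and transcript GC content, lengths and shared words from GENCODE transcripts on GRCh37, matched by gene. One marker gene is not reported here.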

Additional observations from a re-analysis of the deposited data

How the results depend on the processing

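The number of members called in LSD1 KO against WT was 0 under all 16 alternatives, which included DESeq2, other filters and scalings, the replicate block and leaving out each library. The number of all genes called was 1 in the reported fit, 282 with the replicate block, 95 with DESeq2 and 114 with no filter on low counts. It was 4 with a correction for GC content and length, 420 with that correction and the replicate block, 22 without both replicate 2 libraries, and 1 to 26 when 1 library was left out, with 26 without LSD1 KO replicate 2. The block changed no call of a member or of a corepressor. The median log2 fold change of the members was below 0 in all 15 alternatives and ran from -0.59 to -0.20 when 1 library was left out, and the ratio of summed CPM ran from 0.681 to 0.878. For replicate number, the 9 members called became 5 with DESeq2's likelihood ratio test, 5 at q under 0.05, 2 with the correction for GC content and length, and 3 to 9 when 1 library was left out, while the 7273 genes called ran from 4525 to 8668. ZNF714, 1 of the 2 members called with the correction for GC content and length, had no annotated transcript and was itself not corrected. The corrections for GC content and length, the fits without both replicate 2 libraries and the fits of replicate number without 1 library were chosen after seeing the data. Of the 14 named members with a fit, 10 were below 0 in every setting, and ZNF91, ZNF66, ZNF492 and ZNF90 changed sign in 2 or 3 of them. The cause of these shifts was not tested. The median standard error of a member without the block was 0.33 on the log2 scale, and members under the filter could not be compared.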
